A study of Mus musculus with 9 samples.

Results

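The 9 genes described here encode NOD receptors, inflammasome sensors and the adaptor, proteases and pore protein downstream of them: Nod1, Nod2, Nlrp3, Nlrc4, Aim2, Pycard, Casp1, Casp4 and Gsdmd. They were taken by gene name, and 9 of 9 were found among the 41096 genes of the table. All 9 also passed the filter on low values, an FPKM (reads normalised to gene length and library depth) of at least 1 in at least 4 samples. The RNA came from cells washed out of the peritoneal cavity of mice that were all APOE-/- and all on western diet for 8 weeks. The 5 control samples came from mice given citrate buffer, also on 5 days from 8 weeks of age. The 4 diabetic samples came from mice given streptozotocin, which kills insulin-producing beta cells, at 40 mg/kg on 5 days from 8 weeks of age. Every mouse also received thioglycollate, an irritant that recruits leukocytes, 3 days before the wash (1.5 mL at 3%). The labels name no sample without the APOE-/- genotype, western diet or thioglycollate.

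NOD1 and NOD2 are cytosolic receptors for fragments of bacterial peptidoglycan, and they signal through the kinase RIPK2 to NF-kappaB. Inflammasomes are built when a sensor such as NLRP3, NLRC4 or AIM2 recruits the adaptor ASC, the product of Pycard, and caspase-1. Caspase-1 then matures interleukin-1 beta and cleaves gasdermin D, whose fragments form pores in the plasma membrane. Macrophages are a main site of this pathway, and much of its control lies in protein assembly and cleavage, which RNA levels do not measure.

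In these samples 1 of the 9 genes changed. Nod1 was higher in the diabetic group, at 8.99 ± 0.613 FPKM (SD, n = 4) against 5.79 ± 0.903 (SD, n = 5), a ratio of means of 1.55. None of the other 8 genes passed in either direction by limma (adjusted p = 0.35 to 0.90), and of these 0 had an unadjusted p below 0.05. Among all 11193 genes tested, 4.76% passed, 2.68% being higher and 2.08% lower in diabetic samples, and 1 gene among 9 shows nothing particular to this group of genes. The median log2 fold change of the 9 genes was 0.032, beside -0.013 over all tested genes. Of the 9, 5 had a positive and 4 a negative log2 fold change.

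Promoter sequences are shown for the genes on which the results turn, Nod1 as the gene that changed and Nlrp3 as the most variable one, and for Casp4 as the member holding a kappaB match. Each runs 5′ to 3′ along the gene's own strand, from 250 bases before the start of a transcript to 50 bases after it, as listed by RefSeq on GRCm38.p6. RefSeq entries were found for 8 of the 9 members, in 11 windows, and Gsdmd had none. Capitals mark matches to 5 motifs searched on both strands, which did not overlap each other: an interferon response element (GAAA, any 2 bases, GAAA), a STAT motif (TTCNNNGAA), a kappaB motif (GGGA, any base, TT, any base, CC), the PU.1 and ETS core (GAGGAA) and an AP-1 motif (TGACTCA). Nod1 had 2 windows, chr6:54972563-54972862 and chr6:54971612-54971911, both on the minus strand. Nlrp3 and Casp4 also had 2 windows each, on the plus strand, of which those at chr11:59542436-59542735 and chr9:5308599-5308898 are shown.
Nod1, upstream start: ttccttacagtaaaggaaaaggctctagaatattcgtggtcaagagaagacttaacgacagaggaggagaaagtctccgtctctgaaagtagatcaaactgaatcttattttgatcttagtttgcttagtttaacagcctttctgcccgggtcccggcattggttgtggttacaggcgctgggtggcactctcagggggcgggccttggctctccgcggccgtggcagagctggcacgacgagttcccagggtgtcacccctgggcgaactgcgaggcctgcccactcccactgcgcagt
Nod1, downstream start: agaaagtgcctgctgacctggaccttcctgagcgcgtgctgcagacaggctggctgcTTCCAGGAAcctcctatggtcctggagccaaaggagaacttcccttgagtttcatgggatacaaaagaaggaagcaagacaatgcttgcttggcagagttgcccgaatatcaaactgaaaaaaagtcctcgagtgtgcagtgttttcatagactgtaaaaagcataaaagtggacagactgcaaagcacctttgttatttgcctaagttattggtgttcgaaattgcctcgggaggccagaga
Nlrp3: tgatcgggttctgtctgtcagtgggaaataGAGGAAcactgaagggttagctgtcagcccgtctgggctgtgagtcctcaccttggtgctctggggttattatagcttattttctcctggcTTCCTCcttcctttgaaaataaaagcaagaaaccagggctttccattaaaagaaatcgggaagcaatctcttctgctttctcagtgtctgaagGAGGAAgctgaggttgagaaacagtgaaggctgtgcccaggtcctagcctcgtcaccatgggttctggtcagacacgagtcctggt
Casp4: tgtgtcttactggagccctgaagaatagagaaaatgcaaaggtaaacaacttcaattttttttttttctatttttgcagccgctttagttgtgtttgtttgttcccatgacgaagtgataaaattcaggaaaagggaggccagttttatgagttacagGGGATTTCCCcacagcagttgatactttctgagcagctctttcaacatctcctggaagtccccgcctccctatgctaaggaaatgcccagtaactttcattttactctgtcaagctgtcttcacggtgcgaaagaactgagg

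The first Nod1 window held no match to the 5 motifs. The other held 1 STAT match, at bases -193 to -185 counted from the start, a motif found in 8.30% of all 32851 windows of this length. In the Nlrp3 window the PU.1 and ETS core occurred 3 times, with first bases at -220, -129 and -36, the middle one on the opposite strand. The other Nlrp3 window held no match to the 5 motifs. That core was in 28.3% of all windows and in 4 of the 11 windows of these genes, namely those of Aim2, Pycard, Casp1 and Nlrp3. The kappaB match of Casp4 lay at -92 to -83. The other Casp4 window, which overlaps this one, holds the same match at -103 to -94 from its own start. Those were the 2 of 11 windows with that motif, which 1.20% of all windows held. No window of these genes held the interferon response element (3.44% of all windows) or the AP-1 motif (5.20%). A match to a few letters is a description of the sequence and shows no binding.

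Some features of the whole series bear on what follows. Each library held 14156421 to 16169060 reads in genes. On the first principal component diabetic 3, at 1.44, stood between the control samples (-23.5 to -11.2) and the other diabetic samples (20.9 to 30.5). The macrophage genes Adgre1, Csf1r and Cd68 were abundant in every sample, at 185 FPKM or more, while Mertk had 10.9 to 24.1 FPKM. The row of Itgam, from the same marker list, held only 4 to 19 reads per library (0.06 to 0.25 FPKM). Why that row was so low was not tested. Of 8 general macrophage markers tested, 7 had a negative and 1 a positive log2 fold change. Mrc1 was the 1 that passed, being lower in diabetic samples (log2 fold change -1.13, limma adjusted p = 0.033). Large peritoneal macrophage markers leaned the other way. Of 9 tested, 8 had a positive and 1 a negative log2 fold change, and 0 passed. Their sums were 745 to 1039 FPKM in control and 849 to 1255 in diabetic samples. The labels name the samples as macrophages and describe no sorting, and transcripts of other leukocytes were present. The summed level of 14 T cell markers was 126 to 181 FPKM in control and 224 to 700 in diabetic samples, and 12 of the 13 that were tested rose. The summed level of 9 neutrophil markers ran from 116 to 1148 FPKM in control and from 120 to 539 in diabetic samples, and 0 passed. In RNA from mixed cells, fewer cells of a type and less RNA per cell cannot be told apart. Apoe reads were found in both groups (231 to 373 FPKM in control and 135 to 296 in diabetic samples; log2 fold change -0.30, SE 0.23, limma adjusted p = 0.47). Each library thus held Apoe reads (4184 to 10887) although its label is APOE-/-. With no wild-type sample beside them, they check no genotype.

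Levels of the 9 genes spanned from Gsdmd, the pore-forming effector, down to Nod2. Per length, control means were 73.3 FPKM for Gsdmd, 56.6 for Casp1 and 33.4 for Pycard. Then came Aim2 at 11.7 FPKM, Casp4 at 8.69, Nod1 at 5.79 and Nlrp3 at 5.76, followed by Nlrc4 at 3.04 and Nod2 at 1.59. The shared adaptor, caspase-1 and the pore protein were all more abundant than any receptor or sensor. In this order several neighbours overlapped between samples: Gsdmd with Casp1, Aim2 with Casp4, Nod1 with Nlrp3 and Nlrp3 with Nlrc4 in the control group. Casp1 and Pycard did not overlap in control samples (lowest Casp1 43.3, highest Pycard 42.9 FPKM) but did in diabetic samples (40.0 and 45.1). Nod1 and Nlrp3 parted in diabetic samples, where the lowest Nod1 value (8.50 FPKM) exceeded the highest Nlrp3 value (5.56). In those samples Nod1 overlapped with Casp4 (lowest value 7.73 FPKM), as it did not in control samples, where the lowest Casp4 value was 7.36. Nlrc4 stayed above Nod2 in both groups. The per-length level of Pycard depends on a deposited length of 3800 bases, 91.6% of a locus of 4149 bases, whereas the lengths of the others were 2.73% to 35.1% of their loci.

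**Figure D1:**
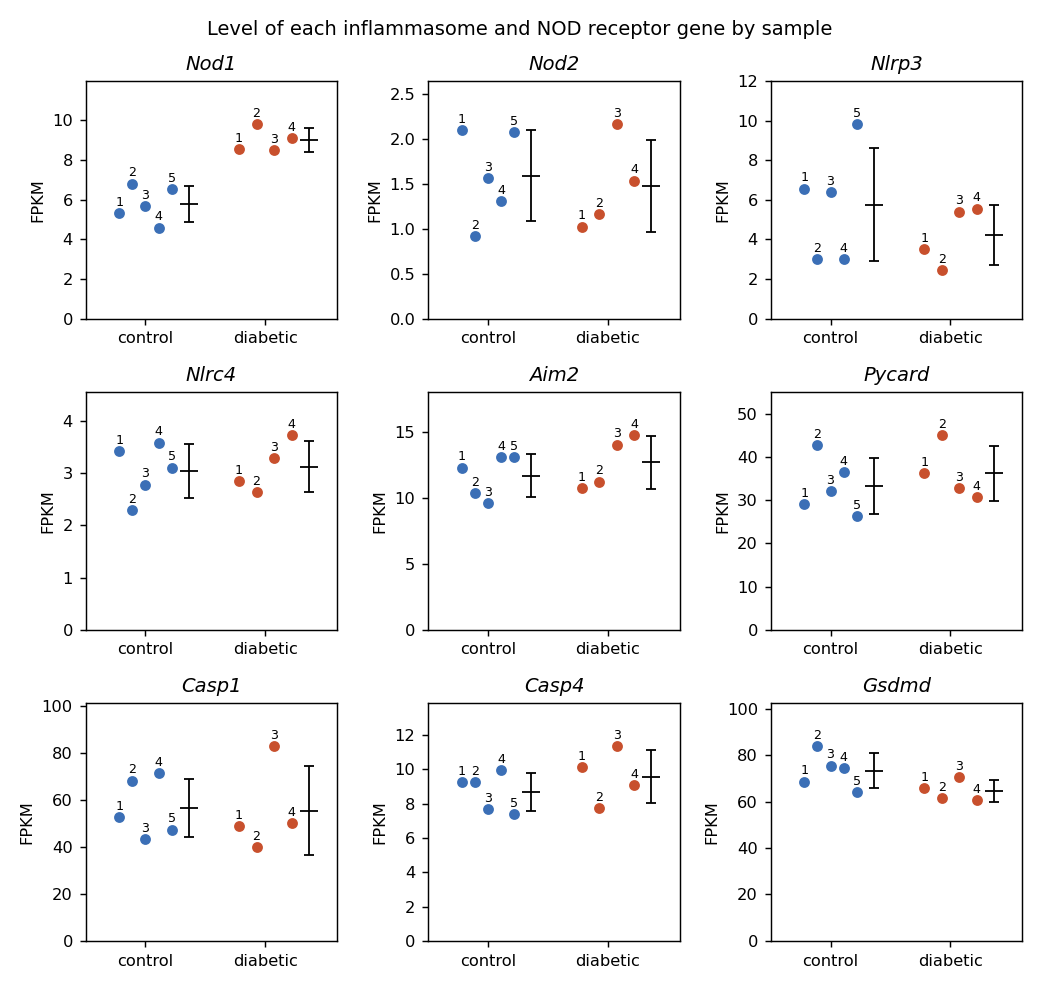
FPKM of each of the 9 genes in control 1 to 5 (blue) and diabetic 1 to 4 (red), each panel on its own linear axis from 0, with the mean and SD of each group as a bar to its right. The 4 diabetic Nod1 values (8.50 to 9.82) lie above the 5 control values (4.59 to 6.81), and in every other panel the groups overlap.

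Nod1 binds peptidoglycan fragments that carry diaminopimelic acid, which are typical of Gram-negative bacteria. Its row (MGP_C57BL6NJ_G0031202, chromosome 6, 55519393 to 55571177, minus strand, as the table gives it) held 327 to 736 reads per sample. Control 1 to 5 had 5.34, 6.81, 5.68, 4.59 and 6.54 FPKM, and diabetic 1 to 4 had 8.55, 9.82, 8.50 and 9.10. Every diabetic sample lay above every control sample, a separation shown by 9.42% of all genes tested and by no other of the 9. The log2 fold change was 0.57 (SE 0.11, 95% interval 0.31 to 0.82, limma adjusted p = 0.023). This call is close to the threshold, and in 7 of 18 alternatives (adjusted p = 0.0062 to 0.081 over all 18) Nod1 did not pass. Leaving out 1 sample gave log2 fold changes of 0.50 to 0.62, and Nod1 passed in 4 of the 9 such fits. Of these fits, it did not pass without control 1 (adjusted p = 0.050), control 3 (0.059), diabetic 1 (0.053), diabetic 2 (0.081) or diabetic 4 (0.077). It also did not pass when low genes were left in (0.054).

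The T cell marker sum was higher in the diabetic samples too, and unevenly so. Diabetic 3, with a sum of 224 FPKM, had 8.50 FPKM of Nod1, and diabetic 2, with the highest sum of 700 FPKM, had 9.82. Control 3, with a sum of 181 FPKM, had 5.68 FPKM of Nod1. The groups parted in both measures, and the part of T cell RNA in the Nod1 result was not tested. Ripk2, the kinase that NOD1 and NOD2 share, did not pass (10.7 ± 0.808 against 11.6 ± 0.410 FPKM, n = 5 and 4; limma adjusted p = 0.50; named here with its values known). The ratio of Nod1 to Ripk2 was 0.398 to 0.688 in control and 0.704 to 0.865 in diabetic samples, without overlap. Nod1 alone already parted the groups, so this ratio is no separate result.

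**Figure D2:**
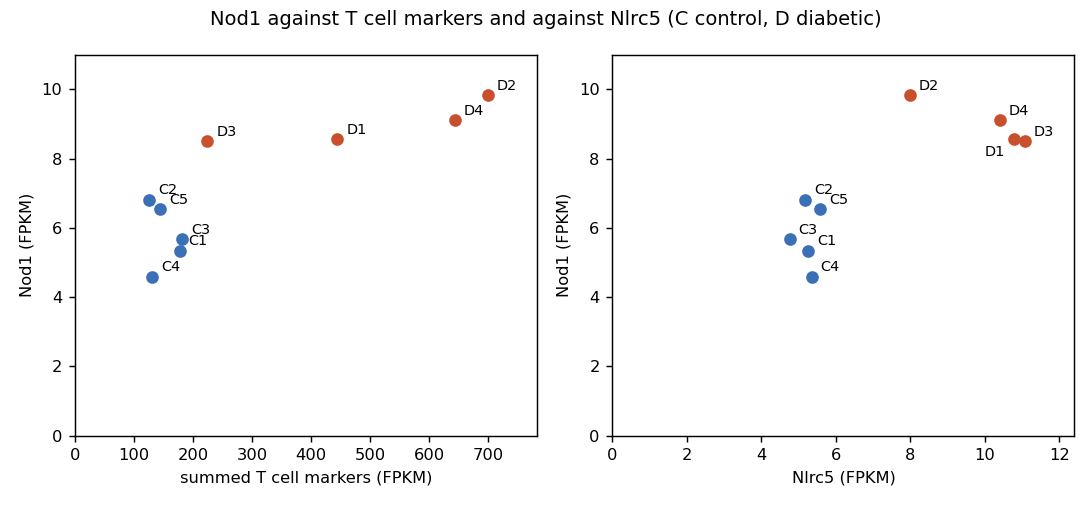
FPKM of Nod1 on the vertical axis in each sample, against the summed FPKM of 14 T cell markers (left) and the FPKM of Nlrc5 (right), with control samples C1 to C5 in blue and diabetic samples D1 to D4 in red. Diabetic 3 has a T cell sum of 224 FPKM, the nearest to the controls, and Nod1 at 8.50 FPKM.

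Nod2, the receptor for muramyl dipeptide, was the lowest of the genes, with 67 to 166 reads per sample (chromosome 8, 93122130 to 93166670). Control samples had 2.10, 0.917, 1.57, 1.31 and 2.08 FPKM, and diabetic samples 1.03, 1.16, 2.17 and 1.54. The highest value was in diabetic 3 and the lowest in control 2, and the groups overlapped across most of their range. The log2 fold change was -0.067 (SE 0.18, 95% interval -0.47 to 0.33, limma adjusted p = 0.86), and its sign turned without control 1 (0.0030) or diabetic 1 (0.021). Whether Nod1 and Nod2 differed in their response was not tested. The ratio of Nod1 to Nod2 overlapped between groups, at 2.54 to 7.43 in control and 3.92 to 8.46 in diabetic samples.

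Nlrp3, the sensor that answers potassium efflux, crystals and membrane damage, varied most among the 9 (chromosome 11, 61262215 to 61293867, 147 to 643 reads). Control samples had 6.57, 3.01, 6.39, 3.00 and 9.84 FPKM, and diabetic samples had 3.53, 2.46, 5.41 and 5.56. Control 5 was highest and diabetic 2 lowest, with control 2 and 4 among the low samples. The coefficient of variation was 49.7% in the control group, and counting alone would give 5.65% at the mean read number of all 9 samples. Its log2 fold change of -0.31 (SE 0.32, 95% interval -1.02 to 0.40, limma adjusted p = 0.61) was within this spread.

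Nlrp3 and neutrophil transcripts were high and low in the same control samples. The neutrophil marker sums of control 1 to 5 were 565, 116, 472, 118 and 1148 FPKM, so that control 2 and 4 were low in both and control 5 high in both. Among control samples, summed eosinophil, B cell, T cell, and mesothelial and fibroblast markers were also lowest in control 2 and 4. The other marker sums were not, and that of general macrophage markers was highest in control 2 (2798 FPKM). Eosinophil marker sums were 42.0, 14.7, 42.4, 20.8 and 51.6 FPKM in control 1 to 5, and B cell marker sums were 2189, 1041, 2067, 1289 and 2013 FPKM. T cell marker sums were 177, 126, 181, 131 and 145 FPKM, and mesothelial and fibroblast sums 48.2, 18.7, 43.3, 37.4 and 40.6. In diabetic 1 to 4 the neutrophil sums were 120, 291, 262 and 539 FPKM. Diabetic 2, lowest in Nlrp3, was not the lowest in this sum. Mmp9 (12.8 FPKM) and Retnlg (31.7 FPKM) were lowest of all 9 samples in diabetic 2, and S100a8, S100a9, Cxcr2 and Csf3r were lower in diabetic 1. Eosinophil sums in diabetic 1 to 4 were 15.5, 8.41, 14.9 and 17.8 FPKM, and B cell sums were 2739, 3260, 1602 and 3447. T cell sums were 445, 700, 224 and 644 FPKM, and mesothelial and fibroblast sums 58.1, 52.5, 49.9 and 27.8. Mpo and Elane, markers of immature neutrophils, stayed below 1 FPKM in every sample. Il1b, whose protein precursor is cut by caspase-1, had 24.8, 5.34, 16.3, 5.98 and 53.6 FPKM in control and 6.14, 8.60, 17.0 and 23.8 in diabetic samples (limma adjusted p = 0.84; named with its values known). It too was lowest in control 2 and 4 and highest in control 5. The part of neutrophil, eosinophil, B cell, T cell, mesothelial or fibroblast RNA in the spread of Nlrp3 was not tested.

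Pycard encodes ASC, the adaptor that joins sensors to caspase-1 (chromosome 7, 137536736 to 137540884, 1613 to 2531 reads). Control samples had 29.1, 42.9, 32.1, 36.5 and 26.3 FPKM, and diabetic samples 36.3, 45.1, 32.8 and 30.7. Control 5 was lowest and diabetic 2 highest, the reverse of Nlrp3. Its log2 fold change was 0.12 (SE 0.16, 95% interval -0.22 to 0.46, limma adjusted p = 0.70).

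Across the 9 samples Nlrp3 and Pycard ran opposite to each other. On log2(FPKM + 1) Pearson's r was -0.95 (p = 4.96e-05 by a two-sided exact permutation test; 0.0018 after adjustment over the 36 pairs of these genes) and Spearman's rho was -0.97 (exact permutation p = 0.00017, adjusted p = 0.0060). Without control 5 and diabetic 2, the samples farthest from the median of Nlrp3, r was -0.90. With the group means removed it was -0.94. The ratio of Nlrp3 to Pycard ran from 0.0703 to 0.373 in control and from 0.0544 to 0.181 in diabetic samples. Of the 36 pairs, 20 had a positive and 16 a negative r, and this was the 1 pair that passed. Next were Nod2 with Nlrp3 and Nlrc4 with Aim2 (r 0.82 each), Nod2 with Pycard (-0.82) and Casp1 with Casp4 (0.80), each with an adjusted p of 0.081 by the exact permutation test. For Spearman's rho the adjusted p of that test was 0.36, 0.15, 0.33 and 0.31 in the same order. Without the 2 samples farthest from the median of the first gene, r was 0.81, 0.74, -0.80 and 0.57. Among 9818 tested genes with a name, the most negative r was -0.97 for Nlrp3 (with Cmas) and -0.97 for Pycard (with Kdm2a). A strongly negative r was thus not limited to this pair, and its share among all gene pairs was not computed. Both genes of a pair were read from the same libraries and cell mixtures, and the part of these in the relation was not tested.

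**Figure D3:**
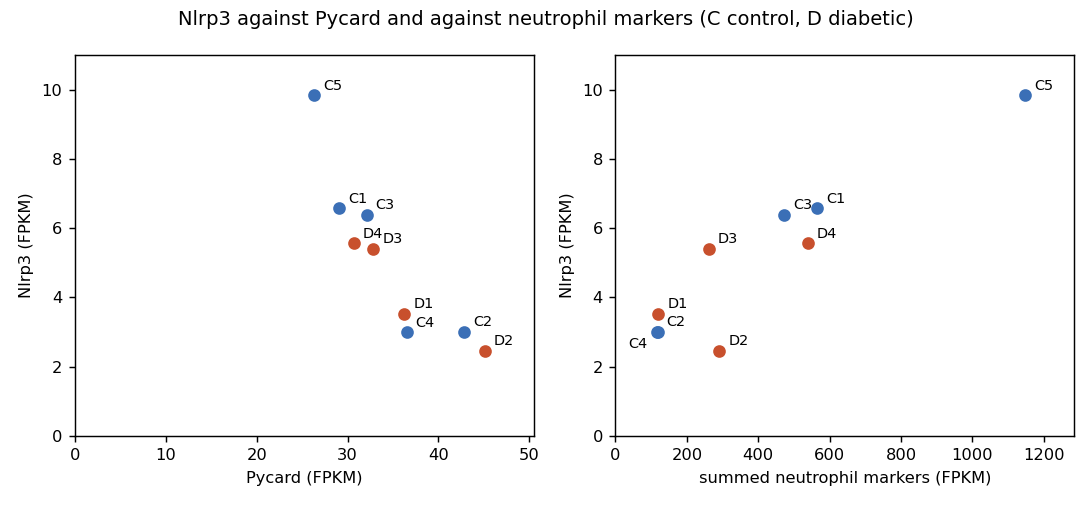
FPKM of Nlrp3 on the vertical axis in each sample, against the FPKM of Pycard (left) and the summed FPKM of 9 neutrophil markers (right), with control samples C1 to C5 in blue and diabetic samples D1 to D4 in red. Control 5 has the highest Nlrp3 (9.84), the lowest Pycard (26.3) and the highest neutrophil sum (1148).

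Nlrc4, which acts with NAIP proteins as a sensor of flagellin and bacterial secretion systems, had 121 to 208 reads per sample (chromosome 17, 79817584 to 79857202). Control samples had 3.42, 2.30, 2.78, 3.59 and 3.11 FPKM, and diabetic samples 2.85, 2.64, 3.29 and 3.73. The groups overlapped throughout, and the means were 3.04 ± 0.516 (SD, n = 5) and 3.12 ± 0.486 (SD, n = 4). The log2 fold change of 0.032 (SE 0.13, 95% interval -0.25 to 0.32, limma adjusted p = 0.90) turned negative with array weights (-0.054), with quantile normalization (-0.0067), without control 2 (-0.038) and without diabetic 4 (-0.036).

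Aim2, a sensor of double-stranded DNA in the cytosol, was the most abundant of the sensors (chromosome 1, 185258101 to 185386443, 479 to 806 reads). Control samples had 12.3, 10.4, 9.58, 13.1 and 13.1 FPKM, and diabetic samples 10.8, 11.2, 14.03 and 14.8. Diabetic 3 and 4 lay above every control sample while diabetic 1 and 2 lay within the control range. Diabetic minus control, this gave a log2 fold change of 0.11 (SE 0.13, 95% interval -0.18 to 0.39, limma adjusted p = 0.67). The Aim2 locus overlaps Cadm3 on the opposite strand. Cadm3 did not exceed 0.580 FPKM, and the strand setting of the counting is not given in the sources used here.

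Casp1 and Casp4 are neighbours on chromosome 9 (2205792 to 2214562 and 2216125 to 2249033, both on the plus strand), with 1562 bases between them. Casp1 encodes the protease that canonical inflammasomes activate. Its control samples had 52.8, 68.2, 43.3, 71.3 and 47.4 FPKM, and its diabetic samples 48.7, 40.0, 83.0 and 50.3. Diabetic 3 was the highest of all 9 and diabetic 2 the lowest. The log2 fold change was -0.054 (SE 0.22, 95% interval -0.53 to 0.42, limma adjusted p = 0.90), and -0.26 without diabetic 3. It turned positive without diabetic 2 (0.082), control 4 (0.034) or control 2 (0.019), and with quantile normalization (0.0090).

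Casp4, whose product binds bacterial lipopolysaccharide in the cytosol, is the protease of the non-canonical pathway. Its control samples had 9.23, 9.23, 7.68, 9.94 and 7.36 FPKM, and its diabetic samples 10.1, 7.73, 11.3 and 9.09 (407 to 602 reads). Diabetic 3 was again the highest, and the groups overlapped. Casp4 had a log2 fold change of 0.12 (SE 0.13, 95% interval -0.16 to 0.40, limma adjusted p = 0.61). The ratio of Casp1 to Casp4 was 5.64 to 7.40 in control and 4.83 to 7.32 in diabetic samples.

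Gsdmd encodes gasdermin D, the pore-forming substrate of both proteases, and it was the most abundant of the 9. Its row (chromosome 15, 78738745 to 78743810, 1610 to 2194 reads) had 68.6, 83.9, 75.5, 74.4 and 64.1 FPKM in control and 66.0, 61.4, 70.6 and 60.5 in diabetic samples. All 4 diabetic samples lay below the control mean of 73.3, although diabetic 1 and 3 stood above control 5. Gsdmd had a log2 fold change of -0.18 (SE 0.10, 95% interval -0.41 to 0.053, limma adjusted p = 0.35). It stayed negative in 18 of 18 alternatives (-0.22 to -0.12) and passed in none (adjusted p = 0.23 to 0.56).

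**Figure D4:**
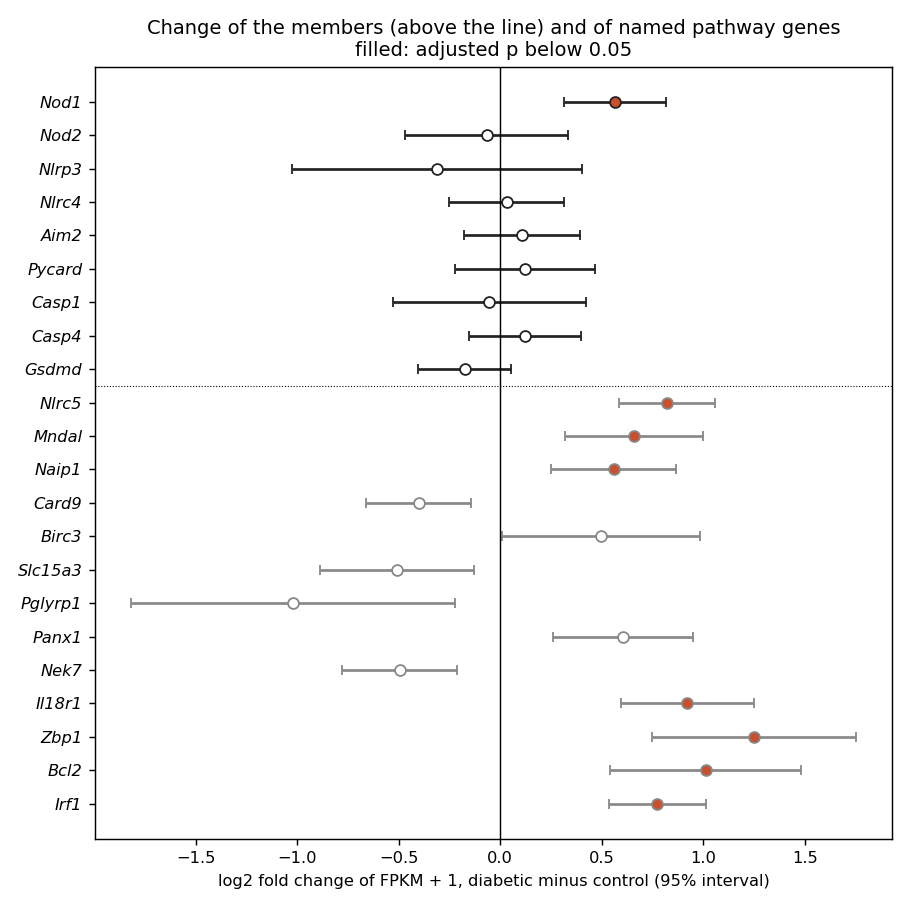
Log2 fold change of FPKM + 1 (diabetic minus control) with 95% intervals for the 9 genes, above the dotted line, and for 13 other pathway genes chosen by rule, below it, with filled points for an adjusted p below 0.05. Among the 9 only Nod1 (0.57) is filled, and the interval of Nlrp3 (-1.02 to 0.40) is the widest of the 9.

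The rest of the pathway was read from 8 lists of 129 genes, of which 121 were in the table and 108 were tested. Of these 8 were higher and 0 lower in diabetic samples, where 2.68% of all tested genes were higher. This count was 4 without control 3, diabetic 1 or diabetic 4, 5 without control 1 or control 5, and 17 without diabetic 3, of which 10 were higher. The median log2 fold change of the 108 was 0.029. Groups did not overlap for 13 of the 108, beside 9.42% of all tested genes. Nlrp6, Nlrp9b, Slc15a1 and Gsdmc were listed at 0 in every sample, which allows up to 3 reads per library.

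Among 14 tested pattern receptors and inflammasome sensors beyond the 9 genes, 3 were higher and 0 lower (median 0.084). Nlrc5, an NLR protein that acts in the nucleus to switch on MHC class I genes, had 5.25, 5.18, 4.76, 5.35 and 5.59 FPKM in control and 10.8, 7.99, 11.1 and 10.4 in diabetic samples. The lowest diabetic value exceeded the highest control value, and the log2 fold change was 0.82 (SE 0.11, limma adjusted p = 0.0050). Nlrc5 passed in 9 of 9 fits that left out a sample, and its adjusted p ran from 0.0011 to 0.051 over 18 alternatives. The ratio of Nod1 to Nlrc5 overlapped between groups, at 0.856 to 1.32 in control and 0.767 to 1.23 in diabetic samples. Mndal, of the same gene cluster as Aim2 (means 15.8 in control and 25.2 FPKM in diabetic samples; log2 fold change 0.66, adjusted p = 0.037), and Naip1, a receptor for the needle protein of bacterial secretion systems that acts with NLRC4 (means 2.93 and 4.87 FPKM; log2 fold change 0.56, adjusted p = 0.047), passed in 2 of 9 fits each. Both have near-identical copies between which reads may be split or shared, so their values are uncertain. The row of Naip1 was named from the UniProt match in the table.

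NOD signalling genes, 23 of 23 tested, included 0 that passed in either direction by limma, with a median of 0.090. Card9, an adaptor downstream of NOD2 and of lectin receptors, had mean levels of 31.3 in control and 23.4 FPKM in diabetic samples (log2 fold change -0.40, adjusted p = 0.078). Birc3, a ubiquitin ligase of the NOD signalling complex, had 20.2 and 27.7 FPKM (0.50, adjusted p = 0.22). Of the 5 tested genes for muropeptide transport and processing 0 passed, with a median of -0.37. Slc15a3, a lysosomal transporter of bacterial peptides, had 45.9 and 32.6 FPKM (log2 fold change -0.51, adjusted p = 0.11). Pglyrp1, a secreted peptidoglycan-binding protein of neutrophil granules, had 61.8 and 28.1 FPKM (-1.02, adjusted p = 0.13). It was at 29.5 and 34.1 FPKM in control 2 and 4, the control samples with the lowest neutrophil sums, and at 78.4 to 84.3 in the other control samples. The neutrophil sums of those others differed more, at 565 FPKM in control 1, 472 in control 3 and 1148 in control 5. Control 2 and 4 were also the lowest control samples in eosinophil, B cell, T cell, and mesothelial and fibroblast sums. The part of RNA from any of these cells in Pglyrp1 was not tested.

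Of 21 tested genes that activate or regulate NLRP3, 0 passed in either direction (median -0.11). Panx1, a membrane channel that releases ATP, had 8.18 in control and 13.2 FPKM in diabetic samples (log2 fold change 0.60, limma adjusted p = 0.054). Nek7, the kinase that bridges NLRP3 subunits, had 6.04 and 3.99 FPKM (-0.50, adjusted p = 0.054). Both passed without diabetic 3, at 0.78 (adjusted p = 0.0028) and -0.54 (adjusted p = 0.036). Among 11 tested cytokine genes 1 rose, Il18r1, which encodes a chain of the receptor for interleukin-18 and is found on T and natural killer cells (means 1.28 and 3.36 FPKM; log2 fold change 0.92, adjusted p = 0.011; 9 of 9 fits). Il18 itself had a log2 fold change of -0.0080 (adjusted p = 0.98; likewise named with its values known).

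Other caspases and gasdermins gave 1 rise among 12, that of Zbp1, a nucleic acid sensor of necroptosis and PANoptosis that interferon induces (means 14.7 and 37.8 FPKM; log2 fold change 1.25, limma adjusted p = 0.018, and 0.0048 to 0.098 over 18 alternatives; 8 of 9 fits). Inhibitors of caspases and inflammasomes gave 1 rise among 10, Bcl2, which is high in lymphocytes (means 2.40 and 5.98 FPKM; log2 fold change 1.01, adjusted p = 0.025, and 0.0027 to 0.098 over 17 alternatives; 4 of 9 fits), and their median was 0.49. Diabetic 3, with the lowest T cell sum of its group, had the lowest Bcl2 of its group at 3.35 FPKM. Transcription factors of inflammasome genes gave 2 rises among 12 (median 0.029). Irf1, a factor of the interferon response, rose from a mean of 19.5 to 34.3 FPKM (log2 fold change 0.77, adjusted p = 0.0055; 9 of 9 fits). Il18r1 and Bcl2 are expressed by lymphocytes, and 12 of 13 tested T cell markers rose in the same samples. Of 11 B cell markers 4 rose and 0 fell, with sums of 1041 to 2189 FPKM in control and 1602 to 3447 in diabetic samples. The part of T cell and B cell RNA in these rises was not tested.

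**Figure D5:**
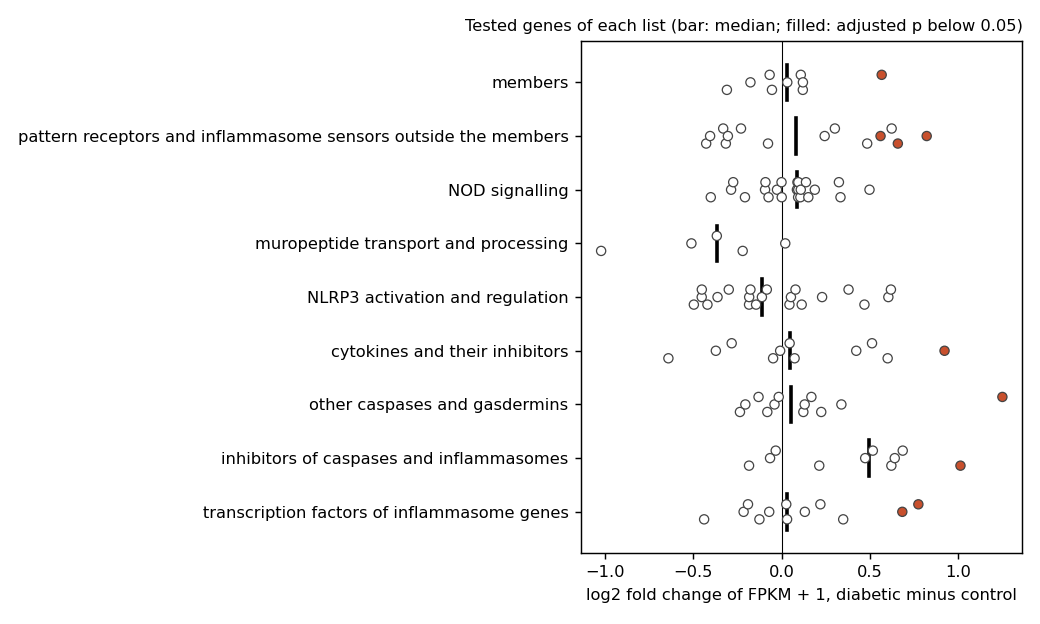
Log2 fold change of FPKM + 1 (diabetic minus control) of each tested gene in the 9 genes and the 8 pathway lists, with a bar at each median and filled points for an adjusted p below 0.05. The filled points, 1 among the 9 genes and 8 in the lists, all lie above 0, and the medians of the lists run from -0.37 to 0.49.

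The genes most alike each member in their pattern over the 9 samples were found by Pearson's r of log2(FPKM + 1) among 9818 tested genes with a name. For Nod1 they were Clp1 and Dcaf12 (r 0.97 each), and for Nlrp3 the row of Mir221 (0.97) and Csf1, a macrophage growth factor (0.96). For Nod2 they were Arg2 (0.96) and Msn (0.95), for Nlrc4 Gpbp1 (0.96) and Zfp597 (0.95), and for Aim2 Ddx60 (0.96) and N4bp2l2 (0.95). Pycard was most like Cryl1 and Nelfe (0.98 each), Casp1 like Fam49a (0.97) and Mis12 (0.96), and Gsdmd like Hlx (0.97). Casp4 had the lowest best match, with Ifi205 and Dpy19l1 at 0.93 each. No member was among the top matches of another, and with 9 samples and 9818 genes such values describe these libraries alone.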

How the data were processed

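The authors deposited 1 table of FPKM values for 41096 genes in 9 samples, with gene lengths and positions per the file headers. Builds GRCm38 and mm10 appear in the submitters' processing notes. The sources used here name neither the aligner nor the counting tool. Gene identifiers are those of the C57BL/6NJ gene set, so positions are printed as the table gives them and RefSeq promoters by their own build. Multiplied by gene length and divided by a value of 1 read fitted for each library, 100% of values above 0 gave whole reads (within 0.05). The values are already scaled between samples by size factors of the median-of-ratios kind. All 9 sample columns matched a title, and 0 were unmatched. Names came from the table or, for 595 rows, from its UniProt matches.

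Here limma 3.58.1 in R 4.3.3 was fitted on log2(FPKM + 1) with trend and robust moderation, over genes reaching an FPKM of 1 in 4 or more samples, with group as the only factor (two-sided, Benjamini-Hochberg over 11193 genes, adjusted p below 0.05). Fold changes on this scale understate those of low genes. Named genes are all members, up to 5 passing genes per pathway list in order of p, or otherwise up to 2 with the smallest p, and the 2 genes most like each member; a few results under this rule are not reported here. Alternatives were other pseudocounts, filters, moderation, array weights, quantile normalization, a replicate block, voom on the recovered reads and leaving out each sample. Nothing in the labels tells single animals from pools, so the p-values reflect spread among these samples, which may be technical. Members, lists and tests were chosen with earlier results of these data known.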

Additional observations from a re-analysis of the deposited data

How the results depend on the processing

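The 533 changed genes (300 higher, 233 lower) became 183 without a filter on low values, 1304 with array weights (677 higher, 627 lower) and 62 with the replicate number as a block (45 higher, 17 lower). Leaving out 1 sample gave 115 to 1126. Leaving out control 1 gave 325, control 3 gave 198, control 4 gave 352, diabetic 1 gave 230, diabetic 2 gave 119, diabetic 3 gave 1126 and diabetic 4 gave 115. Of the 9 members 0 passed without a filter and 0 with the replicate block, and 0 to 1 when a sample was left out. The 8 passing pathway genes became 4 without a filter, 19 with array weights and 2 with the replicate block, and 4 to 17 when a sample was left out. Nod1 had a log2 fold change of 0.57 without a filter (adjusted p = 0.054, with more genes tested) and 0.61 with the replicate block (adjusted p = 0.078), and 0.50 to 0.62 when a sample was left out (adjusted p = 0.0062 to 0.081 over its 18 alternatives, positive in each). Nod2 ran from -0.19 to 0.021, Nlrc4 from -0.038 to 0.091 and Casp1 from -0.26 to 0.082 when a sample was left out. Nlrc4 was -0.054 with array weights and -0.0067 with quantile normalization, and Casp1 was 0.0090 with the latter; the cause was not tested. Nlrp3, Aim2, Pycard, Casp4 and Gsdmd kept their sign in all 18 alternatives each and passed in none. A filter of FPKM at or above 5 gave no value for Nod2, Nlrc4, Naip1, Il18r1 and Bcl2.

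With the replicate block Nlrc5 had an adjusted p of 0.051, and Zbp1 and Bcl2 of 0.098 each. No pairing by replicate number was seen. Deviations of same-numbered samples correlated at 0.023, 0.16, -0.26 and -0.18, beside -0.30 to 0.33 for samples with unlike numbers. So few values cannot exclude a pairing. Array weights were lowest for control 2 (0.474) and diabetic 3 (0.438). Depth limits Nod2 most, at 67 to 166 reads per sample, and reads without molecular identifiers are not independent molecules. The intervals of the 8 members that did not pass still allow changes, as far as -1.02 on the log2 scale in the case of Nlrp3.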
